A study of Mus musculus with 9 samples.

Results

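The cytosolic ribosomal protein genes were described in hearts with and without pressure load, as all genes whose platform symbol was Rpl or Rps followed by a number (with an optional a, l or x), together with Rplp0, Rplp1, Rplp2 and Rpsa. The rule found 40 genes among the 20239 genes with a symbol, 17 of the small (40S) and 23 of the large (60S) subunit, and used no measured value. A mouse RefSeq gene table holds 83 symbols of this form, and the other 43, among them Rpl3, Rpl10, Rpl39, Rps4x, Rpl32 and Rps18, were not analysed here.

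The mice were male C57BL/6, and RNA of the whole heart was hybridised to 9 Affymetrix arrays, with 3 hearts in each of 3 groups. Every mouse received an adeno-associated virus (AAV) at 8 weeks of age, and the MLC (myosin light chain) promoter, active in muscle, drove the virus's coding sequence. The sham-luciferase group carried luciferase as the control protein and had surgery without constriction. The TAC-luciferase group carried luciferase and had the aorta narrowed (transaortic constriction, TAC), which loads the heart with pressure. The TAC-HDAC4-NT group had the same constriction and carried amino acids 1 to 201 of histone deacetylase 4 (HDAC4-NT). Surgery came 4 weeks after the virus, and hearts were collected 4 weeks later. All groups carried a virus, and no sham group carried HDAC4-NT.

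A cytosolic ribosome joins a small subunit, which reads the messenger RNA, to a large subunit, which forms the peptide bond and holds the exit tunnel of the new protein. Its proteins are encoded by single genes scattered over the genome, here on 16 chromosomes, and are made in near-equal numbers, while many silent copies (processed pseudogenes) resemble their mRNAs. Most of these mRNAs begin with a cytosine and a run of pyrimidines, the 5′ terminal oligopyrimidine (TOP) tract, through which mTOR signalling sets how much of them is translated. The heart grows under load by making protein, and ribosome production rises in hypertrophy largely through rRNA synthesis. A few ribosomal proteins have a tissue-restricted relative: RPL3L stands in for RPL3 in heart and skeletal muscle, and RPL10L and RPL39L are known from the testis.

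Values were log2 units of the authors' RMA expression, on which every array has the same distribution, with a median of 5.88 and a range from 5.03 to 14.1. These levels compare a gene between arrays and do not rank genes against each other. In whole-heart RNA, fewer cells of a type and less RNA per cell cannot be told apart. The labels give 3 animals per group, and with so few arrays small changes cannot be resolved. The count of genes called between the TAC groups depended on which TAC-luciferase hearts were kept. It was 4 without heart 2 alone and 12 without heart 3 alone. Without TAC-luciferase heart 1 the genes called between the TAC groups went from 32 to 697. Without hearts 2 and 3 they were 10, in a fit where that group is 1 array assumed to vary like the other groups. Results are given with and without these hearts where that changed a call.

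Of the 40 members, 33 (13 small, 20 large subunit) passed the filter on low values, which asked for at least 3 of 9 arrays above 5.66 log2 units. Rpl10l passed with 5 arrays, namely all 3 TAC-luciferase arrays, sham 1 and TAC-HDAC4-NT 3, and the other 32 passed with all 9. Without its TAC-luciferase arrays Rpl10l would not have been tested, so its being high there was part of its selection. The 7 that failed were Rpl21, Rpl31, Rpl39l, Rps6, Rps24, Rps25 and Rpsa, none of which was tested. Across all 9 arrays Rpl21 lay between 5.43 and 5.68, Rpl31 between 5.36 and 5.56, and Rpl39l between 5.29 and 5.46. Rps24 lay between 5.28 and 5.47, and Rps25 between 5.45 and 5.76. Rps6, the small-subunit protein phosphorylated by S6 kinase, lay between 5.20 and 5.36, and Rpsa, a small-subunit protein also called the laminin receptor, between 5.43 and 5.61. Except for Rpl39l these are standard constituents of the ribosome, and their values here sat at the low end of the arrays' range. What these probe sets recognise was not tested.

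Under pressure load most tested ribosomal protein mRNAs lay close to their sham level, with a typical size of change near that of all tested genes. The muscle paralog Rpl3l fell sharply. Between TAC-luciferase and sham-luciferase hearts, 1 of the 33 tested members rose (Rpl13a) and 1 fell (Rpl3l), at an adjusted p under 0.05 in limma's test (Benjamini-Hochberg over all 12597 tested genes). The same test called 26.1% of all tested genes in either direction, 11.2% higher and 14.9% lower, and 4 members had an unadjusted p under 0.05. Of all 12597 tested genes, 4689 had an unadjusted p under 0.05. The members' median log2 fold change was 0.02, beside -0.01 for all tested genes. The members' median absolute change was 0.097, beside 0.114 for all tested genes. Of the 33, 17 changed by less than 0.1 log2 units and 28 by less than 0.2. Over all tested genes the quartiles of the change were -0.13 and 0.09, so small changes were common there too. For 30 of the 33 members the 95% interval of the change lay wholly within 0.5 log2 units of 0, and such intervals were not counted over all genes. That limit is wider than the change called for Rpl13a (0.28), so it does not show that these mRNAs were unchanged. The members' groups did not overlap for 2 higher (Rpl13a, and Rpl10l, which was tested only through its TAC-luciferase arrays) and 3 lower genes (Rpl3l, Rpl14, Rps2), against 15.9% of all tested genes higher and 21.6% lower (37.4% in all).

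Rpl3l encodes the large-subunit protein that takes the place of RPL3 near the peptidyl transferase centre in striated muscle. It stood at 8.96, 8.86 and 8.98 log2 units in the sham hearts, at 7.34, 7.84 and 7.70 in the TAC-luciferase hearts, and at 7.45, 7.93 and 7.58 in the TAC-HDAC4-NT hearts. Every TAC heart lay below every sham heart, and the TAC groups overlapped throughout. Rpl3l was 2.48-fold lower in TAC-luciferase than in sham hearts (95% interval 1.98 to 3.11; log2 fold change -1.31, SE 0.14, limma adjusted p = 0.000263). Only 15 of the 12597 tested genes had a lower log2 fold change, which made Rpl3l number 16 from the bottom. In TAC-HDAC4-NT against sham hearts it was lower by a log2 fold change of -1.28 (SE 0.14, limma adjusted p = 0.000329), number 8 from the bottom. Between the TAC groups the change was 0.03, with a 95% interval from -0.29 to 0.36, which does not reach the size of the fall under load. Both falls passed the test in all 12 alternative settings and with each array left out, with changes of -1.60 to -1.17 for TAC-luciferase and -1.42 to -1.18 for TAC-HDAC4-NT.

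**Figure D1:**
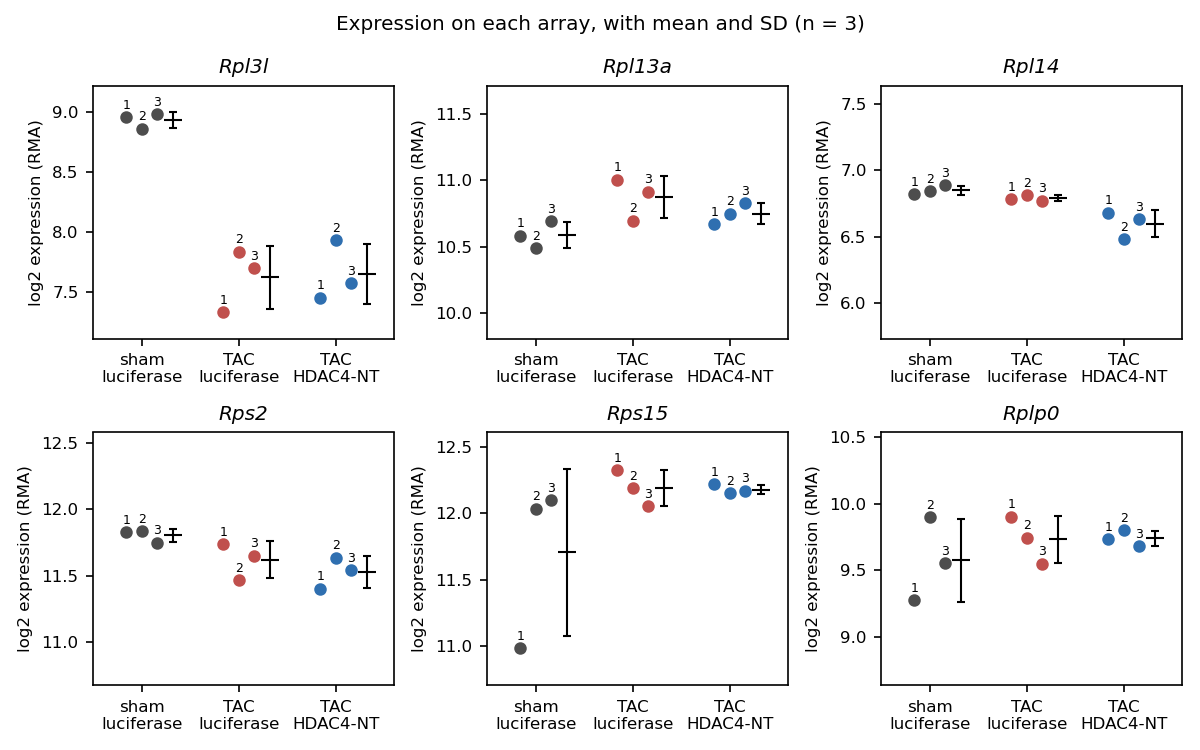
Log2 expression (RMA) of 6 ribosomal protein genes on each of the 9 arrays; numbered points are single hearts, horizontal bars are group means and error bars are SD (n = 3). Rpl3l is lower in all 6 TAC hearts (7.34 to 7.93) than in the 3 sham hearts (8.86 to 8.98), while sham heart 1 stands low for Rps15 (10.98) and Rplp0 (9.27).

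Rpl3l is restricted to striated muscle, so the levels of cell type markers are given beside it. Of all tested genes, 11.2% were called higher and 14.9% lower in TAC-luciferase against sham hearts. For TAC-HDAC4-NT against sham hearts these shares were 10.5% and 12.3%. Of 10 cardiomyocyte markers, 1 rose (Mybpc3, by 0.28) and 2 fell (Myh6 by 0.23 and Myl3 by 0.22 log2 units) in TAC-luciferase against sham hearts, with a median of -0.11. With an array left out, the count of higher markers was 0 except without sham 3 or TAC-luciferase 3, and that of lower markers was 1 without TAC-luciferase 2 or 3 and otherwise 2. The lowest change of any of the 10 was -0.23, against -1.31 for Rpl3l. On the sham arrays the 10 markers averaged 13.1 to 13.2 log2 units, near the arrays' highest value of 14.1, and Rpl3l stood at 8.86 to 8.98. Whether changes are muted at such high levels was not tested. The summed linear level of the 10 markers ran from 95847 to 101779 in sham, from 93353 to 96000 in TAC-luciferase and from 95079 to 96326 in TAC-HDAC4-NT hearts. Over 10 fibroblast markers, of which 7 rose, the sum went from between 5994 and 6555 in sham hearts to between 11207 and 11499 in TAC-luciferase and between 12165 and 12658 in TAC-HDAC4-NT hearts. Of 12 macrophage markers, 5 rose in TAC-luciferase and 7 in TAC-HDAC4-NT hearts (4 without TAC-HDAC4-NT heart 1), with sums of 2412 to 2639 in sham, 3274 to 4181 in TAC-luciferase and 3217 to 3574 in TAC-HDAC4-NT hearts. No gene of these 3 lists lay below the filter value on all arrays of a group. The part that cell composition has in the fall of Rpl3l was not tested.

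Rpl13a, a large-subunit protein that is also used as a reference transcript, was the member called higher under load. Its values were 10.58, 10.49 and 10.69 in sham, 11.01, 10.70 and 10.92 in TAC-luciferase, and 10.67, 10.75 and 10.83 in TAC-HDAC4-NT hearts. The lowest TAC-luciferase heart stood only just above the highest sham heart. The rise was 1.22-fold (log2 fold change 0.28, SE 0.09, 95% interval 0.09 to 0.48, limma adjusted p = 0.0392). The call was lost on leaving out any of 7 arrays. The adjusted p was then 0.0962 without sham 1, 0.115 without sham 2, 0.104 without TAC-luciferase 1 and 0.105 without TAC-luciferase 3. It was 0.0518, 0.0576 and 0.0501 without TAC-HDAC4-NT 1, 2 and 3, where the change itself stayed at 0.28. The call was also lost with no filter (adjusted p = 0.0666), with array weights (0.11) and with only the arrays of both groups in the fit (0.0751). In TAC-HDAC4-NT against sham hearts Rpl13a changed by 0.16 (SE 0.09, limma adjusted p = 0.233).

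Rps15, a protein of the small-subunit head near the decoding site, had the largest upward change without passing the test. Its sham hearts read 10.98, 12.03 and 12.10, its TAC-luciferase hearts 12.32, 12.19 and 12.05, and its TAC-HDAC4-NT hearts 12.22, 12.15 and 12.17. Sham heart 1 stood about a log2 unit below the other 8 arrays, which all lay between 12.03 and 12.32. The change against sham was 0.48 (SE 0.25, limma adjusted p = 0.191) in TAC-luciferase and 0.47 (SE 0.25, limma adjusted p = 0.218) in TAC-HDAC4-NT hearts. Without sham heart 1 these fell to 0.12 (adjusted p = 0.33) and 0.11 (adjusted p = 0.384). Rps14, another small-subunit protein, had the lowest change after Rpl3l in TAC-luciferase hearts, at -0.24 (SE 0.18, limma adjusted p = 0.367). Its sham values of 8.82, 8.37 and 9.01 spanned its TAC-luciferase values of 8.38, 8.71 and 8.39.

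**Figure D2:**
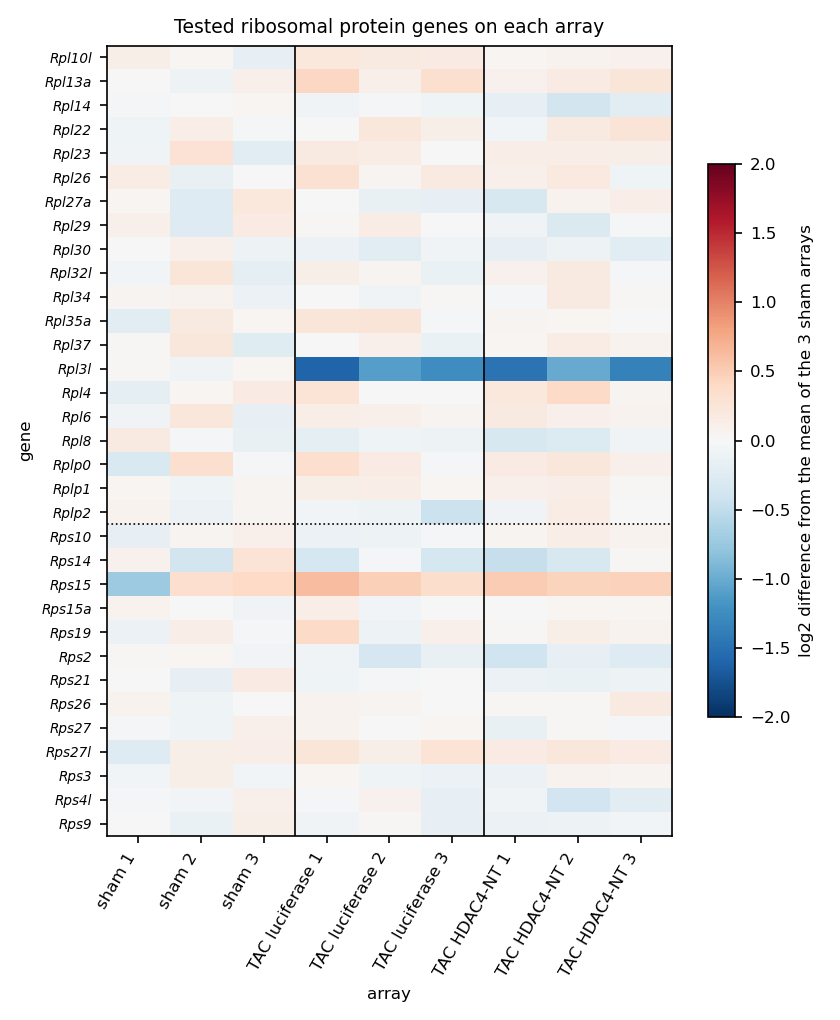
Log2 difference of the 33 tested ribosomal protein genes on each of the 9 arrays from the mean of the 3 sham arrays (red higher, blue lower); vertical lines part the groups and the dotted line parts the large from the small subunit. The row of Rpl3l stands apart in all 6 TAC hearts (as low as -1.60 in TAC-luciferase heart 1), and sham heart 1 is low for Rps15 (-0.72).

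The heart-to-heart spread of the members was wider than that of most genes. Their median within-group SD, pooled over the groups, was 0.128 log2 units against 0.0877 for all tested genes, and the median SE of a change was 0.093 against 0.0697. The largest SDs were those of Rps15 (0.37), Rps14 (0.26) and Rpl3l (0.21), and the smallest was that of Rplp1 (0.0642). The mean level of the 33 tested members on an array ran from 8.34 to 8.44. Those of the sham arrays were 8.37, 8.43 and 8.43, those of the TAC-luciferase arrays 8.44, 8.41 and 8.36, and those of the TAC-HDAC4-NT arrays 8.34, 8.42 and 8.396. The 3 groups overlapped in this mean, which the common distribution of the arrays holds relative to all other genes. A change in the total amount of ribosomal mRNA per heart was not measured.

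Many arrays' probes for these genes can also match processed copies. RefSeq names 141 genes as -ps copies of 27 members, with up to 24 for 1 member (Rpl31), and 13 members have none. Rpl3l and Rpl10l have none, Rpl13a and Rpl14 have 1 each, and Rps2 has 12. Which copies the probe sets match was not tested. Among the 12 tested members without such a copy, 1 (Rpl3l) was called in each comparison with sham, where the test called 26.1% (TAC-luciferase) and 22.8% (TAC-HDAC4-NT) of all genes. Their median changes were -0.01 for TAC-luciferase against sham, 0.00 between the TAC groups and 0.03 for TAC-HDAC4-NT against sham hearts.

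The starts of the genes are shown because the TOP tract is the feature these mRNAs share, and because Rpl3l differed from the other members in its change. Sequences are from RefSeq with assembly GRCm38.p6, and 33 of the 40 members had a window. Each line gives 15 bases before and 15 bases from the annotated start, 5′ to 3′ on the gene's strand, with the longest run of C and T in capitals. Rpl3l and the 3 other called members come first, followed by Rps10, Rps27 and Rplp2 as examples chosen from the members with a tract exactly at the start.
Rpl3l (chr17:24727811-24727840, plus strand): gagtgttctagctctgtcatttgaCCTCTg
Rpl13a (chr7:45128731-45128760, minus strand): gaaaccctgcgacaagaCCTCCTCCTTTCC
Rpl14 (chr9:120571502-120571531, plus strand): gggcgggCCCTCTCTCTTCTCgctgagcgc
Rps2 (chr17:24720048-24720077, plus strand): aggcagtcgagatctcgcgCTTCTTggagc
Rps10 (chr17:27635230-27635259, minus strand): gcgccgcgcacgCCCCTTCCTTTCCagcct
Rps27 (chr3:90213634-90213663, minus strand): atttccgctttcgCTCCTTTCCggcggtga
Rplp2 (chr7:141447636-141447665, plus strand): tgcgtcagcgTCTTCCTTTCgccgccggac
In these windows Rpl14 has its run of 14 pyrimidines across the annotated start and Rps10 one of 13. The runs of Rpl3l (5 long), Rps2 (6) and Rpl13a (13) begin downstream of the start, and 24 of the 33 members have no tract exactly at it.

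A cytosine followed by at least 4 pyrimidines stood exactly at an annotated start in 9 of the 33 members with a window (27.3%), against 3.01% of 27025 mouse genes. Allowing the tract to begin within 10 bases of the start gave 72.7% of the members, Rpl3l among them, and 34.4% of all genes. The wider search raises the share for any gene. Of the tested members with a tract exactly at the start, 8 in number, none was called in TAC-luciferase against sham or between the TAC groups, and 1 (Rpl14) in TAC-HDAC4-NT against sham hearts. Their median changes were -0.01, -0.03 and 0.03 in these comparisons. Of the 19 tested members with a window and no tract exactly at the start, 2, 0 and 2 were called, with medians of 0.097, 0.010 and 0.078. Of all tested genes, 26.1%, 0.254% and 22.8% were called, and the sets of members were not tested against each other. In the whole window of 300 bases, searched on both strands, CCGGAAGT, a site bound by ETS factors such as GABP, was found in 21.2% of the members and 4.31% of all genes. The GATA core AGATAA was found in 1 member, Rpl3l, and in 12.7% of all genes. The MEF2 consensus (CTA, any 4 bases, TAG), of interest because class IIa histone deacetylases such as HDAC4 bind and repress MEF2, was found in 0 of the 33 members and 4.23% of all genes. A match describes letters in the window and not a bound site.

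No ribosomal protein gene was called between loaded hearts with and without HDAC4-NT. In TAC-HDAC4-NT against TAC-luciferase hearts, 0 of the 33 tested members passed the test (limma, adjusted p under 0.05). The background was low as well, since the same test called 0.254% of all tested genes. An unadjusted p under 0.05 was found for 2 members and for 1807 of all 12597 tested genes. The members' median absolute change was 0.0637, beside 0.0633 for all tested genes. Their median change was -0.01, beside 0.00 for all tested genes, and 23 of the 33 changed by less than 0.1 log2 units. Over all tested genes the quartiles of the change were -0.06 and 0.07. For 32 of the 33 members the 95% interval lay within 0.5 log2 units of 0, and such intervals were not counted over all genes. The groups did not overlap for 1 higher (Rps10) and 4 lower members (Rpl10l, Rpl14, Rpl29, Rps21), against 11.6% of all tested genes higher and 8.8% lower (20.4% in all). Rps10, Rpl10l and Rps21 lay below the stricter filter value of 6.20 on every array.

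The genes at the ends of that comparison were Rplp2 and Rpl14. Rplp2, an acidic protein of the lateral stalk that recruits translation factors, read 10.55, 10.51 and 10.19 in TAC-luciferase and 10.54, 10.77 and 10.62 in TAC-HDAC4-NT hearts, a change of 0.23 (SE 0.10, limma adjusted p = 0.355). Rpl14, a large-subunit protein, read 6.82, 6.84 and 6.89 in sham, 6.78, 6.81 and 6.77 in TAC-luciferase, and 6.68, 6.48 and 6.63 in TAC-HDAC4-NT hearts. All 3 TAC-HDAC4-NT hearts lay below all 6 others, and the TAC-luciferase hearts lay just below the sham hearts. The change between the TAC groups was -0.19 (SE 0.06, unadjusted p = 0.00858, limma adjusted p = 0.175). Rps10, a protein of the small-subunit head, was higher by 0.17 (SE 0.07, unadjusted p = 0.0423, limma adjusted p = 0.324), with values of 6.07, 6.16 and 6.10 above 5.91, 5.92 and 6.00.

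**Figure D3:**
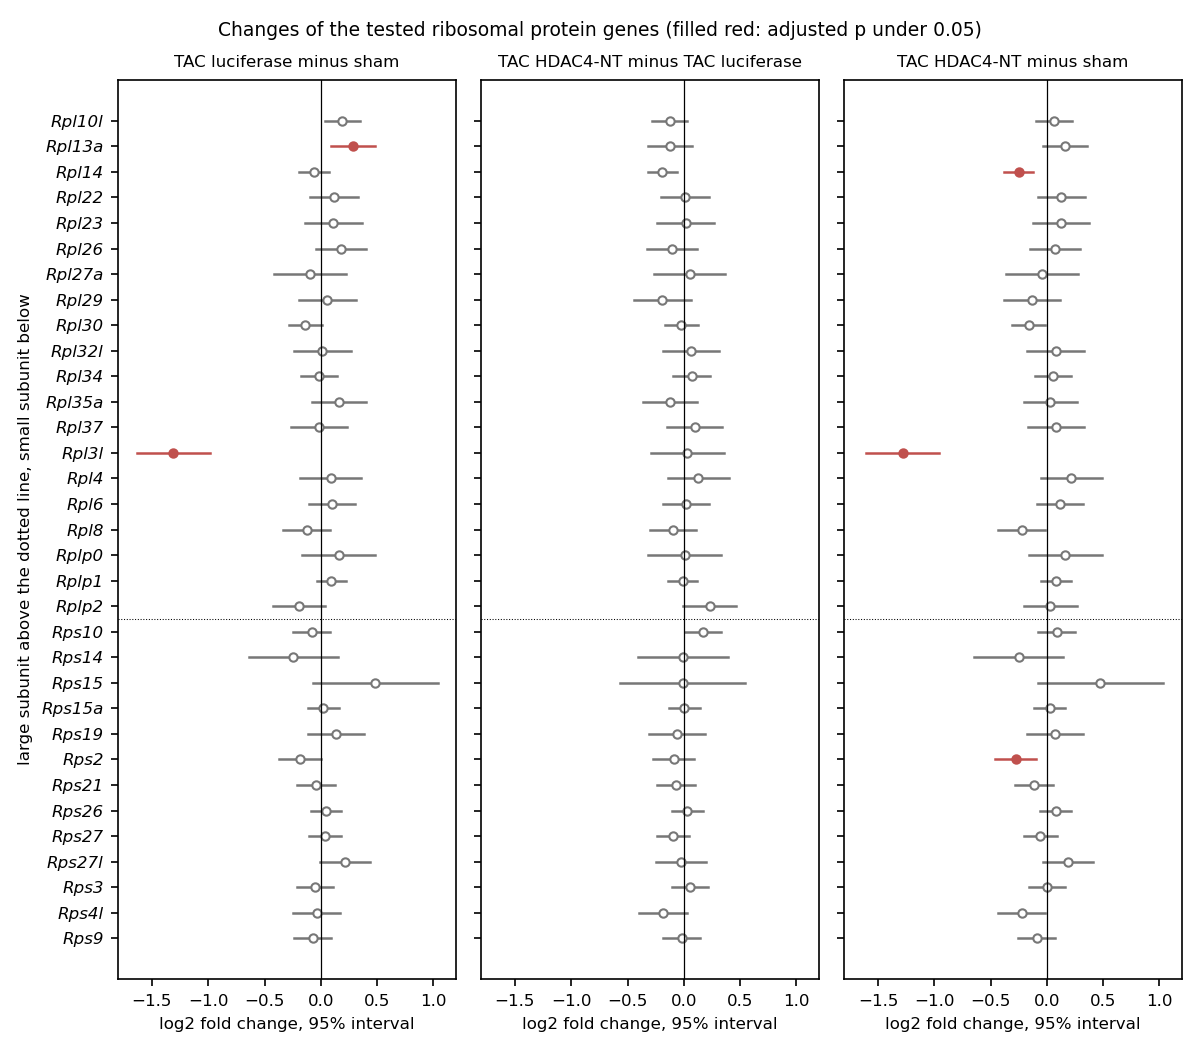
Log2 fold change of the 33 tested ribosomal protein genes (points) with 95% intervals (bars) in the 3 comparisons; filled red points passed an adjusted p under 0.05, and the dotted line parts the large from the small subunit. Rpl3l stands apart at -1.31 and -1.28 in the comparisons with sham, and no point is filled between the TAC groups.

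The comparison of TAC-HDAC4-NT with sham hearts shares its sham arrays with the first comparison and its TAC-HDAC4-NT arrays with the second. In it 3 members fell (Rpl3l, Rpl14 and Rps2), 0 rose, and 6 had an unadjusted p under 0.05, while the test called 22.8% of all tested genes (10.5% higher, 12.3% lower). An unadjusted p under 0.05 was found for 4256 of all 12597 tested genes. The members' median was 0.05, beside -0.01 for all tested genes, and 25 of the 33 changed by less than 0.2 log2 units. Over all tested genes the quartiles of the change were -0.12 and 0.09. The members' median absolute change was 0.114, beside 0.105 for all tested genes. The groups did not overlap for 2 higher (Rps15, Rps27l) and 5 lower members (Rpl3l, Rpl14, Rpl30, Rps2, Rps4l), against 18.3% of all tested genes higher and 21.5% lower (39.7% in all).

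Rpl14 was lower than in sham hearts by a log2 fold change of -0.25 (SE 0.06, limma adjusted p = 0.0124), and the call held with each array left out (adjusted p from 0.0153 to 0.0423). Its change in TAC-luciferase against sham hearts was -0.06 (SE 0.06, limma adjusted p = 0.512). Rps2, a small-subunit protein beside the mRNA entry channel, read 11.83, 11.84 and 11.75 in sham, 11.74, 11.47 and 11.65 in TAC-luciferase, and 11.40, 11.64 and 11.54 in TAC-HDAC4-NT hearts. Each TAC heart lay below each sham heart. The change was -0.28 (SE 0.08, limma adjusted p = 0.0376) for TAC-HDAC4-NT and -0.19 (SE 0.08, limma adjusted p = 0.132) for TAC-luciferase hearts. Between the TAC groups Rps2 changed by -0.09 (SE 0.08, limma adjusted p = 0.706).

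The call of Rps2 was lost on leaving out any of 6 arrays. The adjusted p was then 0.0971, 0.0965 and 0.0584 without sham 1, 2 and 3, 0.139 without TAC-HDAC4-NT 1, 0.0865 without TAC-HDAC4-NT 3 and 0.0524 without TAC-luciferase 3. It was also lost with no filter (0.0618), with cyclic loess scaling (0.0637) and with the replicate number as a block (0.076). Without sham 2, both Rpl6 and Rpl23, large-subunit proteins, were called higher in each comparison with sham and Rpl13a in neither.

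The lateral stalk, the P complex that binds elongation factors, is made of Rplp0, Rplp1 and Rplp2, and 0 of these 3 were called in any comparison. Rplp0, its base, read 9.27, 9.90 and 9.55 in sham, 9.90, 9.74 and 9.55 in TAC-luciferase, and 9.74, 9.80 and 9.68 in TAC-HDAC4-NT hearts. Its changes against sham were both 0.16 (SE 0.14), with limma adjusted p of 0.486 for each TAC group. Without sham heart 1 the changes were 0.0079 and 0.014, and without sham heart 2 they were 0.32 and 0.33. For TAC-luciferase the change was 0.072 without its heart 1 and 0.25 without its heart 3. Rplp1, with the smallest pooled within-group SD of the tested members, lay between 11.70 and 11.93 on all 9 arrays, and changed by 0.09 and 0.08 against sham (SE 0.06). Rplp2 changed by -0.20 in TAC-luciferase and by 0.03 in TAC-HDAC4-NT hearts (SE 0.10, limma adjusted p = 0.202 and 0.875).

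Of the listed paralog pairs, both genes were on the table and tested for Rps27 and Rps27l only. Rpl32l, named after Rpl32, was tested but not listed as a paralog, and the alternative without paralogs kept it. It changed by 0.01 in TAC-luciferase and 0.08 in TAC-HDAC4-NT against sham hearts (SE 0.11). Rps27, a small-subunit protein with a zinc finger, ranged from 5.76 to 6.01 on all 9 arrays, and its changes against sham were 0.04 and -0.06 (SE 0.06). All its values lay near the filter value of 5.66 and below the stricter one of 6.20. Changes at such low levels are understated, so they do not show that Rps27 mRNA was unchanged. Rps27l, the paralog of Rps27 and a p53-inducible gene, read 8.76, 9.14 and 9.15 in sham, 9.26, 9.14 and 9.29 in TAC-luciferase, and 9.19, 9.25 and 9.18 in TAC-HDAC4-NT hearts. Sham heart 1 stood below the other 8 arrays. Its changes against sham were 0.21 (SE 0.10, limma adjusted p = 0.148) and 0.19 (SE 0.10, limma adjusted p = 0.221), and without sham heart 1 they were 0.087 and 0.061.

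Rpl10l, a paralog of Rpl10 known from the testis, read 5.70, 5.62 and 5.41 in sham, 5.79, 5.76 and 5.74 in TAC-luciferase, and 5.61, 5.65 and 5.66 in TAC-HDAC4-NT hearts, all close to the filter value. Its TAC-luciferase hearts were the highest on all arrays, by 0.19 over sham (SE 0.07, limma adjusted p = 0.0749). Since Rpl10l entered the test only through its high TAC-luciferase arrays, this p and those of the alternatives are no support for a difference. The change was 0.11 (adjusted p = 0.17) without sham 3 and 0.25 (adjusted p = 0.0313) without sham 1, and a trended and robust prior gave an adjusted p of 0.0366. Rps4l, which RefSeq lists as a transcribed pseudogene, changed by -0.04 in TAC-luciferase and by -0.22 in TAC-HDAC4-NT against sham hearts (SE 0.09, limma adjusted p = 0.825 and 0.124).

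By subunit, the 13 tested small-subunit genes had a median change of -0.04 in TAC-luciferase against sham hearts, with 6 above and 7 below 0. The 20 tested large-subunit genes had a median of 0.07, with 12 above and 8 below 0. In TAC-HDAC4-NT against sham hearts the medians were -0.00076 and 0.07. The subunits were not tested against each other, and no interval was computed for these medians.

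The genes that make and use ribosomes were counted beside the ribosomal proteins. For every list below, the share called over all tested genes was 11.2% higher and 14.9% lower in TAC-luciferase against sham hearts. In TAC-HDAC4-NT against sham hearts that share was 10.5% higher and 12.3% lower. Of 25 tested translation factors, some of them with TOP mRNAs too, 2 rose and 1 fell in TAC-luciferase against sham hearts. Pabpc1, the cytoplasmic poly(A)-binding protein, rose by 0.43 (SE 0.05, limma adjusted p = 0.000383) and Eif3a, the scaffold of initiation factor 3, by 0.26 (SE 0.08). Naca, a chaperone subunit at the ribosomal exit, fell by 0.42 (SE 0.11). Among the same factors 3 rose in TAC-HDAC4-NT against sham hearts, with Pabpc1 at 0.46 and Eif3a at 0.32, and 4 fell, with Eif3m at -0.35.

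Of 20 genes of rRNA transcription none rose and 2 fell in each comparison with sham. These were Polr1a and Polr1b, the large core subunits of RNA polymerase I, with changes of -0.36 and -0.25 in TAC-luciferase and -0.31 and -0.27 in TAC-HDAC4-NT hearts. Of 61 ribosome biogenesis genes, 4 rose and 1 fell in TAC-luciferase against sham hearts. Eif6, which keeps the 60S subunit from joining too early, rose by 0.45 (SE 0.10), Wdr43, of the small-subunit processome, by 0.26 (SE 0.05), and Dkc1, the rRNA pseudouridine synthase, fell by 0.41 (SE 0.06). With cyclic loess scaling 11 of these 61 rose. Against sham, TAC-HDAC4-NT hearts had 1 higher (Rrp12 at 0.37) and 2 lower (Dkc1 at -0.29 and Gnl2 at -0.24). Without TAC-luciferase heart 1 the genes that rose in TAC-luciferase hearts were 9, and without sham heart 2 those that fell were 3.

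Of 22 genes of mTOR, MYC and TOP control, 2 rose and 7 fell under load with luciferase. Myc, a transcription factor that drives ribosome production, rose by 1.74 (SE 0.28, limma adjusted p = 0.00195). Its SD was 0.69 in TAC-luciferase hearts, against 0.12 in sham hearts, and it was not called higher in TAC-HDAC4-NT against sham hearts. Mlst8, a subunit of mTOR complexes, fell by 0.43 (SE 0.07), and Tsc1, an inhibitor of mTORC1, fell by 0.33 (SE 0.06). In TAC-HDAC4-NT against sham hearts 1 rose (Eif4ebp1, a translation repressor that mTOR switches off, by 0.37) and 4 fell, with Tsc1 at -0.35 and the mTOR inhibitor Deptor at -0.24. Between the TAC groups 0 genes of these 4 lists passed the test (limma), which called 0.254% of all tested genes. In the same order 4, 3, 7 and 3 had an unadjusted p under 0.05, as had 1807 of all 12597 tested genes. The lowest change of a control gene there was -2.29, without a call. Of the 61 biogenesis genes, 47 lay below 0 in that comparison, with a median of -0.06. Over all 12597 tested genes 6035 lay below 0 there, with a median of 0.00. Without TAC-luciferase heart 1, 1 biogenesis gene and 2 control genes were lower between the TAC groups. With array weights, 5 biogenesis genes were lower there, and of the control genes 1 was higher and 2 lower. The stricter filter called 1 control gene lower. Against sham, the control genes that fell in TAC-HDAC4-NT hearts were 7 with array weights and 9 with the sample code as a random block, and that block called 9 biogenesis genes higher in TAC-luciferase hearts. The other counts of these lists are small, and leaving out single arrays of any group moved them by 1 to 3 genes.

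Mitochondrial ribosomal proteins, which build a separate ribosome inside mitochondria, are named alike but gave other counts. Of 74 tested, 1 rose and 32 fell in TAC-luciferase against sham hearts, and 1 rose and 30 fell in TAC-HDAC4-NT against sham hearts, with medians of -0.20 and -0.21. Over the alternative settings 14 to 38 and 21 to 38 fell. The 14 came from the fit with 1 TAC-luciferase array, and both counts of 38 from the random block. The other settings gave 23 to 32 and 21 to 32. Between the TAC groups 0 passed (limma; 6 with an unadjusted p under 0.05), with a median of -0.02. Of all 12597 tested genes, 1807 had an unadjusted p under 0.05 there. The difference between the lists was not tested. Of 6 tested transcripts often used as references, Tubb5, B2m and Actb rose in both comparisons with sham, by 0.73, 0.66 and 0.30 in TAC-luciferase and by 0.71, 0.74 and 0.30 in TAC-HDAC4-NT hearts. These 3 rose under both other scalings of the arrays too. The rise of Actb (adjusted p = 0.0425 and 0.0443) was lost in both comparisons with no filter, with only the arrays compared, with the replicate block, and without any of sham 1, sham 2, TAC-luciferase 2, TAC-luciferase 3 and the 3 TAC-HDAC4-NT arrays. The adjusted p for TAC-luciferase and TAC-HDAC4-NT was then between 0.0503 and 0.134, and without both TAC-luciferase hearts 2 and 3 it was 0.323 and 0.0577.

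**Figure D4:**
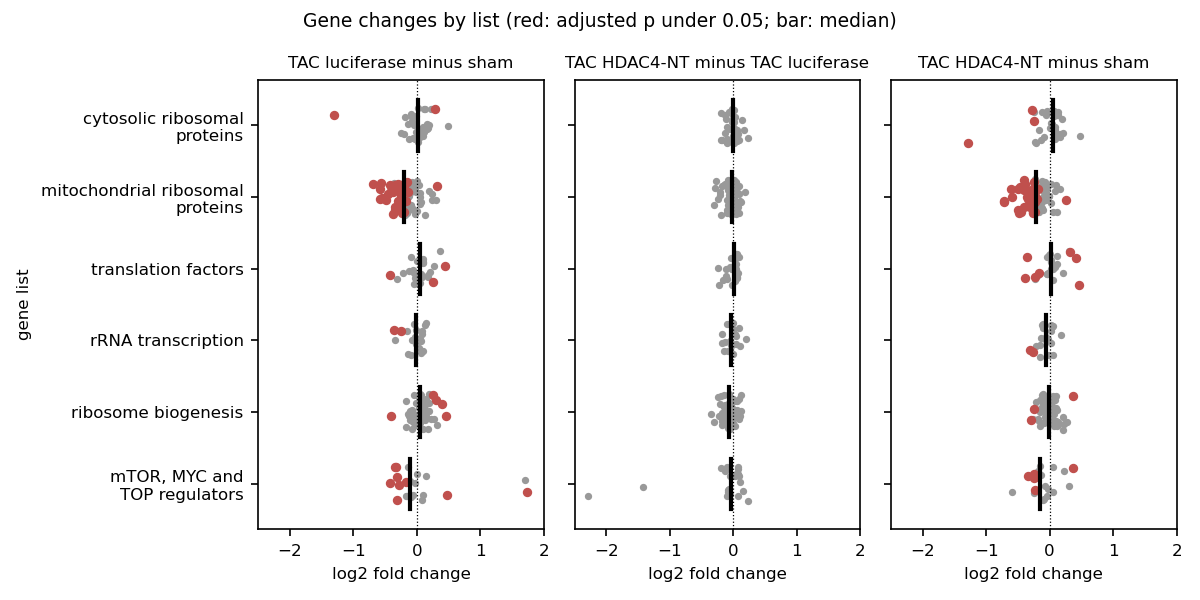
Log2 fold change of each tested gene (points) of the cytosolic ribosomal proteins and of 5 related gene lists in the 3 comparisons; red points passed an adjusted p under 0.05 and black bars are medians. The cytosolic ribosomal proteins stay around 0 except for Rpl3l, and the mitochondrial ones lie lower, with medians of -0.20 and -0.21, in the comparisons with sham.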

How the data were processed

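RNA of 9 whole hearts was extracted with Trizol and labelled as biotinylated cRNA for the arrays (labels' protocols). The log2 scale is that of the authors' RMA run, per the submitters' processing notes. For its version, for the probe sets and for a build, the sources used here name nothing. All 9 arrays had identical sorted values, as quantile normalization leaves them. RMA compresses low values, so changes of weakly expressed genes are understated, and with a common distribution a change is relative to the other genes on the array. The table has no detection p.

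Of 21225 probe sets, 20239 had 1 symbol in the platform annotation, with 1 probe set per gene, and the other 986 have no entry there and go without a name. All 20239 matched RefSeq by gene ID. Tested were 12597 genes with at least 3 of 9 arrays above the 40th percentile of all values, and 7642 were removed. The 3 groups entered a single linear model over 9 arrays (lmFit, contrasts.fit and eBayes of limma 3.58.1, R 4.3.3), with 6 residual degrees of freedom plus 3.23 from the prior. A call required a Benjamini-Hochberg adjusted p under 0.05 over all tested genes. Each list is described by its counts and median, with no set test. Groups came from the sample labels.

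The named genes were members past the threshold, those with the largest and smallest change in each comparison, the stalk genes, paralogs, members that failed the filter, and up to 3 called genes of smallest p from each related list. Genes named for a count of 5 or fewer (Rpl6, Rpl23, Rpl29, Rpl30, Rps10, Rps19, Rps21) were chosen after their values were seen. The members and lists were chosen with earlier results of these data known. Alternatives were a filter at the 60th percentile or none, cyclic loess scaling, a prior with trend and robust fit, centring on other genes, array weights, fits of the compared arrays alone, the replicate number as a block, a random block for the sample code's leading number, adjusted p under 0.01 and 0.10, no paralogs, and each array left out. Leaving out TAC-luciferase hearts 2 and 3 together was added after seeing the data. The fit was tested on simulated data. Figures used matplotlib 3.10.9 in Python 3.11.15.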

Additional observations from a re-analysis of the deposited data

How the results depend on the processing

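Of 111 recomputed counts and medians under other settings, 100 stayed the same by the limits used, and of 81 with an array left out, 69 did. The cause was not tested for any that changed. In TAC-luciferase against sham hearts, the members called higher (1) were 0 with no filter, with array weights, with only the arrays of both groups and at an adjusted p under 0.01. They were 2 with a trended and robust prior, with the sample code as a random block (estimated correlation -0.11, with no code number shared between groups, so that it cannot adjust between them), at an adjusted p under 0.10 and without TAC-luciferase hearts 2 and 3 (Rpl13a and Rps19, with that group 1 array assumed to vary like the others), and from 0 to 2 with an array left out. The members called lower (1) were 0 without the paralogs, since Rpl3l is one of them. The median ran from -0.016 (without TAC-luciferase 1) to 0.043 with an array left out. Between the TAC groups the median was -0.049 without TAC-luciferase hearts 2 and 3, and ran from -0.041 to 0.0098 with an array left out, and 0 members were called in any setting. In TAC-HDAC4-NT against sham hearts the members called higher ran from 0 to 2 and the median from -0.0036 (without sham 3) to 0.075 with an array left out, and the members called lower (3) were 1 at an adjusted p under 0.01.

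The numbers of the replicates were not taken as pairs in the main fit. Deviations of same-numbered hearts correlated between -0.12 and 0.20. Differently numbered hearts were not correlated beside them, so these values cannot decide whether the hearts were paired. With the replicate number as a block, Rpl13a and Rpl3l were called in TAC-luciferase against sham and Rpl14 and Rpl3l in TAC-HDAC4-NT against sham hearts, with Rps2 lost (-0.28, adjusted p = 0.076).

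Named genes that turned sign were all without a call. Between the TAC groups, Rpl3l (0.03) was -0.10 with array weights and ran from -0.11 to 0.14 with an array left out. Rplp0 (0.01) was -0.013 with cyclic loess scaling and -0.17 without TAC-luciferase hearts 2 and 3, and ran from -0.085 to 0.092. Rps15 (-0.01) was 0.024 with array weights and ran from -0.077 to 0.057. Rps14 (-0.01) was 0.11 without TAC-luciferase hearts 2 and 3 and ran from -0.14 to 0.10. With an array left out, Rplp1 ran from -0.04 to 0.019 and Rps27l from -0.073 to 0.0051. Against sham with an array left out, Rps27 ran from -0.0036 to 0.091 and Rps4l from -0.10 to 0.028 in TAC-luciferase hearts, and Rpl10l from -0.017 to 0.13 and Rplp2 from -0.030 to 0.084 in TAC-HDAC4-NT hearts. With 3 hearts in a group the members' median SE was 0.093 log2 units, and small changes, also some larger than that SE, could not be resolved. Rps27l changed by 0.21 (SE 0.10) in TAC-luciferase against sham hearts without passing the test (limma adjusted p = 0.148).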
